A study of Mus musculus with 6 samples.

Results

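The 10 genes described here encode core parts of 2 opposed growth and energy sensors of the cell: the mTOR kinase with its partners raptor and rictor (*Mtor*, *Rptor*, *Rictor*), the TSC complex and its GTPase target (*Tsc1*, *Tsc2*, *Rheb*), 3 subunits of the AMP-activated kinase AMPK (*Prkaa1*, *Prkaa2*, *Prkab1*) and the stress-induced mTOR inhibitor *Ddit4*. They were chosen by gene symbol, and all 10 were found, as 21 of the 54721 transcripts and 10 of the 23276 gene symbols listed. RNA was sequenced from whole kidneys of 6 mice at postnatal day 22 by the labels, which are followed here, whereas the study's text makes the mice a day younger. The 3 single-knockout (SKO) mice carried KspCre with Pkd1 F/RC, that is, 1 floxed *Pkd1* allele and 1 germline hypomorphic RC allele. The 3 double-knockout (DKO) mice carried in addition miR17~92 F/F, floxed alleles of the miR-17∼92 miRNA cluster. All 6 mice thus had a mutant *Pkd1* background, and no mouse with intact *Pkd1* was among them. KspCre is driven by the promoter of *Cdh16*, the tubule-specific Ksp-cadherin, so that cells outside the tubules keep their floxed alleles.

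For each transcript the table gives 1 abundance, the authors' mean over the 6 kidneys of SKO and DKO mice together. It is in CPM, the customary read count scaled to library size, that is, the reads assigned to a transcript in proportion to those assigned to all transcripts of a library. Neither a value per kidney nor a value per genotype goes with it, so no standard deviation is given, the depth of each library is unknown, and the genotypes are not compared here. An order of levels below is therefore a description of this mean, and neighbouring genes in it cannot be separated from one another by any spread. In RNA of a whole organ, fewer cells that express a gene and less RNA per cell cannot be told apart. All 16 marker genes of kidney cell types had at least 1 CPM, from 4.49 for the macrophage marker *Adgre1* (listed as *Emr1*) to 1030 for the proximal tubule phosphate transporter *Slc34a1*, and *Cdh16* stood at 480.4 CPM. The 4 markers of heart, skeletal muscle and brain were at or below 0.171 CPM, whereas *Alb*, the highest of 3 liver markers, stood at 13.4 CPM. All 3 liver markers had at least 1 CPM, as did 55.9% of all gene symbols, so that this limit is not particular to kidney genes. *Pkd1* had 31.8 CPM and *Mir17hg*, the host transcript of the cluster, 4.21 CPM, but a mean over both genotypes cannot check the labels.

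mTOR is the kinase of 2 complexes. With raptor it forms mTORC1, which drives protein synthesis and growth when amino acids and growth factors are plentiful, and with rictor it forms mTORC2, which phosphorylates AKT. The GTPase RHEB switches mTORC1 on at the lysosome, and the complex of TSC1 and TSC2 switches RHEB off. AMPK is a trimer of a catalytic alpha, a scaffolding beta and a nucleotide-binding gamma subunit that is activated when AMP rises and ATP falls. It phosphorylates TSC2 and raptor and thereby restrains mTORC1, and it promotes fatty acid oxidation. Loss of TSC1 or TSC2 causes tuberous sclerosis, in which kidney cysts are common, and mTORC1 activity has long been studied in polycystic kidneys.

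Because the genotypes differ in the miR-17∼92 cluster, the 3′-untranslated regions (3′-UTRs) of the 10 genes were searched for matches to its miRNAs. A miRNA binds target mRNAs mainly through its seed, bases 2 to 8 from its 5′ end. The 6 mature miRNAs are shown here because they define the 4 motifs that were searched. The RefSeq sequences (GRCm38.p6, plus strand of chromosome 14) run 5′ to 3′, with the seed in capitals.
miR-17-5p: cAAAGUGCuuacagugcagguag
miR-20a-5p: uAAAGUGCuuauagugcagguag
miR-18a-5p: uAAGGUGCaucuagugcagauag
miR-19a-3p: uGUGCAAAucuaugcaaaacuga
miR-19b-3p: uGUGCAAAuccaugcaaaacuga
miR-92a-3p: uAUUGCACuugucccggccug

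miR-17 and miR-20a share 1 seed and miR-19a and miR-19b another, so 6 miRNAs give 4 motifs: GCACTTT for miR-17 and miR-20a, GCACCTT for miR-18a, TTTGCAC for miR-19a and miR-19b, and GTGCAAT for miR-92a. Each motif was sought on the transcript strand only, in the longest annotated 3′-UTR of each gene. Of the 10 genes, 3 held at least 1 match and 7 held none. Over all 21001 protein-coding genes with a 3′-UTR, 28.9% held at least 1. By motif, that of miR-17 and miR-20a was held by 1 of the 10 genes against 11.8% of all, that of miR-18a by 2 against 7.82%, that of miR-19 by 2 against 11.5% and that of miR-92a by 2 against 6.57%. The 8 matches lay in *Tsc1*, *Prkaa1* and *Prkaa2*. The windows below hold each match in capitals with 8 bases on either side, 5′ to 3′ on the strand of the gene.
*Tsc1*, miR-92a: ttgaacctGTGCAATatgaggcc
*Tsc1*, miR-17 and miR-20a: ggccttctGCACTTTcctccaac
*Tsc1*, miR-19a and miR-19b, nearer the stop codon: aggctcagTTTGCACtgcagcat
*Tsc1*, miR-18a: agtccgctGCACCTTcgccccag
*Tsc1*, miR-19a and miR-19b, farther from it: ggcgttttTTTGCACtaggaaga
*Prkaa1*, miR-19a and miR-19b: gaatgcagTTTGCACagggactg
*Prkaa2*, miR-18a: tctgctctGCACCTTgcagagga
*Prkaa2*, miR-92a: tatttaaaGTGCAATtaaggaaa

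*Tsc1* held matches to all 4 motifs in a 3′-UTR of 3994 nucleotides. In mm10 their windows lie, in the order shown, at chr2:28687449-28687471, chr2:28688947-28688969, chr2:28690126-28690148, chr2:28690195-28690217 and chr2:28690734-28690756 on the plus strand. The miR-92a match, 284 nucleotides after the stop codon, is followed by an A and thus is an 8mer. The other 4 are not. *Tsc1* was singled out after its matches were seen. Of all 21001 genes, 43 (0.205%) held all 4 motifs, and of the 1558 other genes whose 3′-UTR was within 20% of the length of that of *Tsc1*, 5 did (0.321%). For a single motif, the share among those 1558 genes was 29.8% for miR-17 and miR-20a, 20.2% for miR-18a, 27.5% for miR-19 and 17.5% for miR-92a.

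In *Prkaa1* the only match, to miR-19, was also an 8mer and lay 125 nucleotides after the stop codon (chr15:5179049-5179071, plus strand). The 3′-UTR of *Prkaa1* has 2967 nucleotides, and 21.9% of the 2317 other 3′-UTRs of like length held this motif. *Prkaa2*, with the longest 3′-UTR of the 10 genes at 6218 nucleotides, had a match to miR-18a at chr4:105033646-105033668 and one to miR-92a at chr4:105030962-105030984, both on the minus strand. Among 596 other 3′-UTRs of like length these motifs were held by 27.7% and 24.5%. *Rictor*, whose 3′-UTR of 4165 nucleotides is longer than that of *Tsc1*, held no match to bases 2 to 8. Among 1454 other 3′-UTRs of like length, 29.9% held the motif of miR-17 and miR-20a and 20.7% that of miR-18a. That of miR-19 was held by 29.2% and that of miR-92a by 17.5%, so most of them lacked each motif. Shorter matches, to bases 2 to 7, were present in *Rictor* for each motif. The other 6 genes without a match have 3′-UTRs of 789 (*Tsc2*) to 1925 (*Rptor*) nucleotides. A match describes the letters of the sequence, not binding, and no match says only that these letters are not in the 3′-UTR searched.

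**Figure D1:**
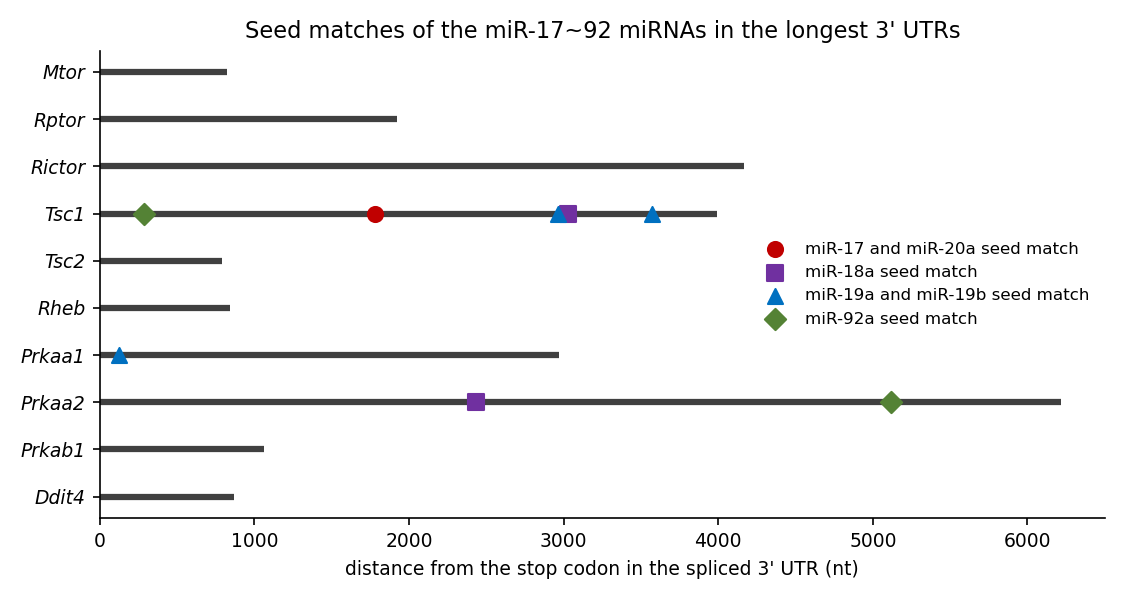
The longest annotated 3′-UTR of each of the 10 genes is drawn as a bar from the stop codon (0) to its end in nucleotides, and each marker is the start of a match to bases 2 to 8 of a miR-17∼92 miRNA. All 8 matches lie in *Tsc1* (5), *Prkaa2* (2) and *Prkaa1* (1), and *Tsc1* has a marker of each of the 4 kinds.

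All 10 genes had at least 1 CPM in their highest transcript, against 55.9% of all gene symbols. All 21 transcripts of the 10 genes did so too, but the share over all transcripts was not counted. With each gene represented by its transcript with the highest CPM, the 10 genes ranged from 14.2 CPM (*Rptor*) to 58.4 CPM (*Prkaa2*), a 4.11-fold range with a median of 25.0 CPM. All 10 stood above the median of 12.6 CPM of the 13001 genes with at least 1 CPM. CPM grow with the length of a transcript, so that an order of different genes in CPM reflects their lengths as well as their levels. The CPM were therefore also divided by the length in kilobases (kb). On that scale the 10 genes ranged 7.24-fold, from 2.15 CPM per kb (*Rptor*) to 15.6 CPM per kb (*Ddit4*), and 7 of the 10 were above the median of 4.06 CPM per kb of the 12476 genes with at least 1 CPM and a known length. The order changed with the scale. *Mtor*, second of the 10 in CPM, was sixth per kb, and *Prkab1*, ninth in CPM, was the third per kb.

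**Figure D2:**
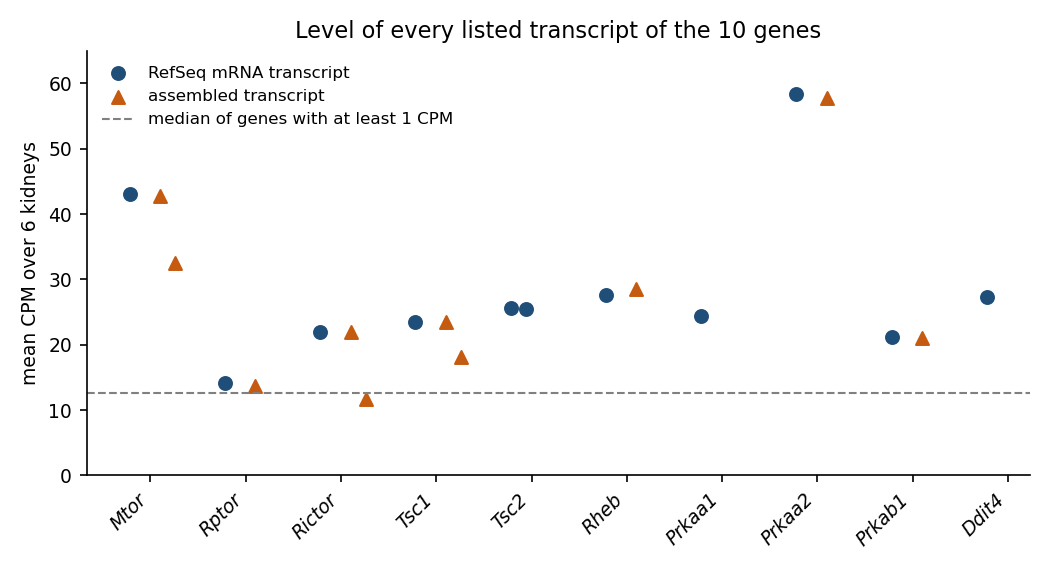
Mean CPM over 6 kidneys (linear axis from 0) of each of the 21 transcripts of the 10 genes, with RefSeq mRNAs as circles, transcripts assembled from the reads as triangles and the median of genes with at least 1 CPM as a dashed line. *Prkaa2* and *Mtor* stand above the rest, and 1 assembled *Rictor* transcript at 11.7 CPM lies below the line.

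The mTOR complexes were examined first. *Mtor*, the kinase shared by both, lies on the plus strand of chromosome 4 from 148448611 to 148557683 in mm10. Its RefSeq mRNA NM_020009 has 58 exons and stood at 43.1 CPM, higher than 84.6% of genes with at least 1 CPM. Its 2 assembled transcripts stood at 42.7 and 32.5 CPM. Per kb of its 8564 nucleotides the RefSeq mRNA had 5.03 CPM, higher than 57.6% of genes on that scale. *Mtor* is thus well above the middle of the expressed genes in read share and close to it once its length is counted.

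*Rptor*, the mTORC1 scaffold that binds substrates, spans chromosome 11 from 119602905 to 119899576 on the plus strand. It had the lowest level of the 10 genes on both scales. Its RefSeq mRNA NM_028898 stood at 14.2 CPM and its assembled transcript at 13.7 CPM. Per kb the level was 2.15 CPM, above 29.96% of genes. An antisense gene, *Rptoros*, shares 84 exonic bases with *Rptor*. The libraries were strand-specific, but whether reads were counted by strand is not given in the sources used here.

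*Rictor*, the subunit that defines mTORC2, lies on chromosome 15 from 6708379 to 6800401 on the plus strand. Its RefSeq mRNA NM_030168 and an assembled transcript both stood at 22.0 CPM. A second assembled transcript stood at 11.7 CPM, 53.3% of the highest, the widest gap between transcripts of 1 gene among the 10. Per kb of its 9312 nucleotides *Rictor* had 2.36 CPM, above 32.7% of genes.

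Per kb the mRNAs of the partners were nearly alike. The ratio of *Rptor* to *Rictor* was 0.910, and *Mtor* had 2.34 times the level of *Rptor* and 2.13 times that of *Rictor*. In uncorrected CPM the *Rptor* to *Rictor* ratio was 0.645. No error can be set on these ratios. Among the other subunits, *Akt1s1* (PRAS40, an mTORC1 inhibitor) had 7.72 CPM per kb, the highest of the 9 genes listed for both complexes, and *Prr5l*, which binds rictor, had the lowest at 0.640. *Mapkap1* (SIN1, of mTORC2) had 7.63 CPM per kb, *Prr5* (also of mTORC2) 4.14, and *Mlst8* (shared by both) 2.98.

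*Deptor*, an inhibitor of both complexes, differed widely between its transcripts. Its highest transcript was an assembled one at 61.4 CPM, whereas its highest RefSeq mRNA stood at 19.1 CPM and 5.79 CPM per kb. The structure of the assembled transcript was not used here, so its level per kb is not known.

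The TSC complex restrains mTORC1. *Tsc1*, which stabilises TSC2, lies on chromosome 2 from 28641228 to 28691167 on the plus strand. Its RefSeq mRNA NM_022887 and an assembled transcript had the same value, 23.5 CPM, and a further assembled transcript stood at 18.1 CPM. Per kb of its 7674 nucleotides *Tsc1* had 3.07 CPM, above 40.7% of genes. It is the same gene whose 3′-UTR held matches to all 4 motifs.

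*Tsc2*, the GTPase-activating subunit, lies on the minus strand of chromosome 17 from 24595816 to 24632630. Both of its transcripts are RefSeq mRNAs, NM_011647 at 25.6 CPM and NM_001039363 at 25.5 CPM. Per kb the level of NM_011647 was 4.09 CPM, above 50.2% of genes. *Tsc1* had 0.751 times the level of *Tsc2* per kb and 0.919 times in CPM.

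*Tsc2* is also the neighbour of the gene mutated in all 6 mice. *Pkd1* lies on the plus strand from 24549834 to 24596508, and the 3′ ends of both genes overlap. In the annotation 693 bases, from 24595816 to 24596508, belong to exons of both *Tsc2* and *Pkd1*, which is 11.1% of the *Tsc2* transcript measured here. *Pkd1* stood at 31.8 CPM. Without strand in the counting, reads from these bases cannot be told apart, and their part in the level of *Tsc2* was not tested.

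*Tbc1d7*, a further subunit of the TSC complex, stood at 3.76 CPM and 3.01 CPM per kb, close to *Tsc1* on the latter scale. *Rheb*, the GTPase that turns mTORC1 on, lies on the minus strand of chromosome 5 from 24802823 to 24842624. It is the only one of the 10 genes whose highest transcript was an assembled one, at 28.6 CPM against 27.6 CPM for RefSeq mRNA NM_053075. With a length of 1784 nucleotides *Rheb* had 15.5 CPM per kb, above 85.4% of genes and second of the 10. Its relative *Rhebl1* stood at 0.902 CPM and 0.715 CPM per kb. Among these 5 genes, the GTPase was therefore the one with the most mRNA per length, several-fold above both TSC genes.

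*Ddit4* (REDD1) is induced by hypoxia, glucocorticoids and other stress, and lowers mTORC1 activity through the TSC complex. It is a short gene on the minus strand of chromosome 10, from 59949669 to 59951834, with 3 exons. Its single listed transcript, NM_029083, stood at 27.4 CPM. With a length of 1755 nucleotides it had 15.6 CPM per kb, above 85.5% of genes and the most of the 10. The relative *Ddit4l* had 3.19 CPM per kb. The sestrins, which also inhibit mTORC1 under stress, had 3.67 (*Sesn1*), 2.50 (*Sesn2*) and 0.866 (*Sesn3*) CPM per kb. *Sesn3* was another gene with an unlike assembled transcript, at 46.0 CPM against 7.91 CPM for its highest RefSeq mRNA. Its level per kb rests on that RefSeq mRNA and an annotated length of 9.125 kb. Whether the transcript that was counted had this length was not tested, so the low place of *Sesn3* is uncertain.

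AMPK subunits exist as paralogs, and the mean of the kidneys held both catalytic subunits. *Prkaa2* (alpha2) lies on the minus strand of chromosome 4 from 105029874 to 105109890. Its RefSeq mRNA NM_178143 stood at 58.4 CPM and its assembled transcript at 57.8 CPM, the highest values of the 10 genes. Its level exceeded that of 89.7% of genes with at least 1 CPM. Per kb of its 7969 nucleotides, most of them 3′-UTR, the level was 7.33 CPM. On that scale it was above 69.4% of genes, and below *Ddit4*, *Rheb* and *Prkab1*.

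*Prkaa1* (alpha1) lies on the plus strand of chromosome 15 from 5143861 to 5181899. Its single listed transcript, NM_001013367, stood at 24.4 CPM, which is 5.23 CPM per kb of its 4655 nucleotides. *Prkaa2* was thus 2.40 times as high as *Prkaa1* in CPM, but 1.401 times per kb, so that the gap between the paralogs depended on the length correction. Per kb *Prkaa2* made up 58.4% of the summed alpha mRNA and *Prkaa1* 41.6%.

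*Prkab1* (beta1), the scaffold that joins alpha and gamma, lies on the minus strand of chromosome 5 from 116013586 to 116024508. Its RefSeq mRNA NM_031869 stood at 21.3 CPM and its assembled transcript at 21.05 CPM. With 2089 nucleotides it had 10.2 CPM per kb, above 77.9% of genes. Its paralog *Prkab2* had 1.86 CPM per kb, so that *Prkab1* was 5.48 times as high and made up 84.6% of the summed beta mRNA per kb. In uncorrected CPM of the RefSeq mRNAs *Prkab1* was 2.29 times as high, 21.3 against 9.29. The highest transcript of *Prkab2*, however, was an assembled one at 12.1 CPM. With the median of each gene's transcripts the ratio per kb was 4.73.

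Of the gamma subunits, *Prkag1* had 10.7 and *Prkag2* 5.96 CPM per kb, or 63.4% and 35.2% of the summed gamma mRNA. In CPM their order was the reverse, 17.7 against 19.9. *Prkag3*, known mainly from skeletal muscle, stood at 0.653 CPM and 0.230 CPM per kb, 1.36% of the sum. The summed levels of the 3 subunit kinds were 12.6 CPM per kb for alpha, 12.03 for beta and 16.9 for gamma. These are mRNA levels, and no trimer can be counted from them.

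**Figure D3:**
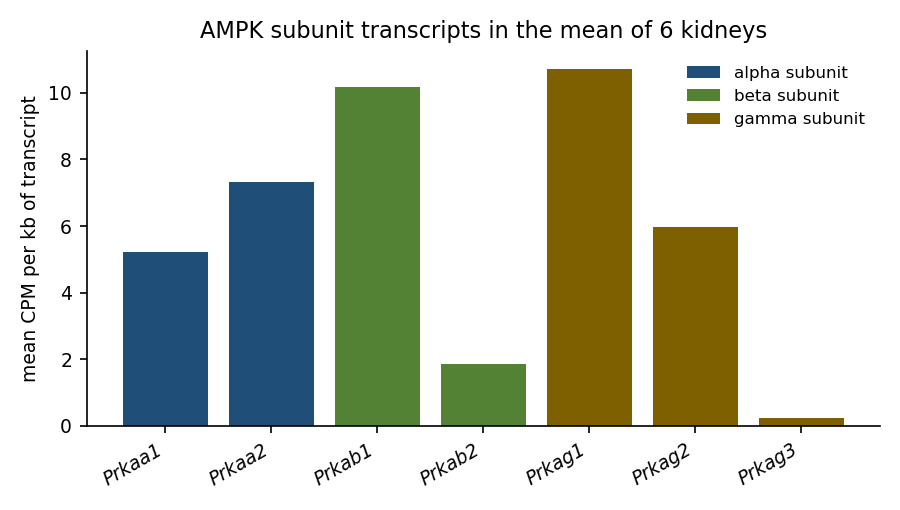
Mean CPM per kb of transcript over 6 kidneys (linear axis from 0) of the 7 AMPK subunit genes, 1 bar per gene, coloured by subunit kind, with no error bars because the table gives 1 mean. *Prkab1* and *Prkag1* are the tallest bars at 10.2 and 10.7, *Prkaa2* stands above *Prkaa1*, and *Prkag3* is close to 0.

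The 10 genes were set beside 70 other genes of the pathways, in 8 lists by role that include the members. Of the 70 genes, 69 were found and 66 had at least 1 CPM. *Samtor* was not found under that symbol or a synonym. Their median was 4.14 CPM per kb, against 5.13 for the 10 genes and 4.06 for all genes with at least 1 CPM and a length, and 35 of the 69 were above the latter. The 10 genes therefore sat within the spread of the other pathway genes, which reached from 0.230 (*Prkag3*) to 202.9 CPM per kb (*Rps6*).

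Among the kinases and adaptors upstream of AMPK, *Cab39* (MO25alpha) was highest at 16.3 CPM per kb and *Camkk1*, a calcium-dependent kinase, lowest at 0.260. *Stk11* (LKB1), the main kinase that activates AMPK, had 10.03 CPM per kb, near the level of *Prkab1*. Among 23 genes that sense amino acids at the lysosome, *Lamtor2*, a Ragulator subunit, was highest at 46.4 and *Rragb*, a Rag GTPase, lowest at 0.630 CPM per kb, and 12 of the 23 were above the median of all genes. Its paralog *Rraga* had 16.4 CPM per kb. Among 12 genes of growth factor input, *Akt1* was highest at 17.1 and *Irs2*, an insulin receptor adaptor, lowest at 1.06 CPM per kb, with 8 of the 12 above the median. The place of *Irs2* rests on its highest RefSeq mRNA at 6.68 CPM. An assembled *Irs2* transcript stood at 18.4 CPM, and its level per kb is not known.

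Among the 11 effectors of both kinases, *Rps6*, the ribosomal protein phosphorylated downstream of mTORC1, was highest at 202.9 CPM per kb, and *Rps6kb2*, one of the kinases that phosphorylate it, was lowest at 1.43 CPM per kb. Outside the rule for named genes, *Sgk1*, a target of mTORC2 in sodium transport, was named after its value was seen, with 49.6 CPM per kb.

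**Figure D4:**
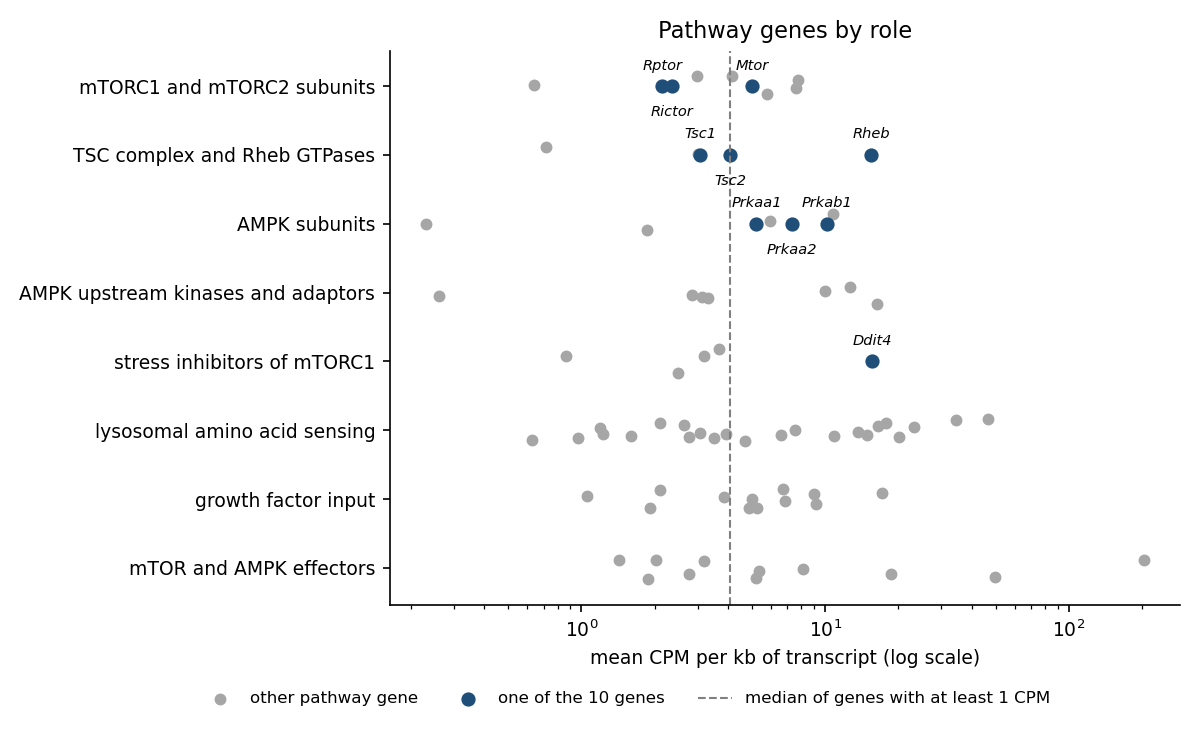
Mean CPM per kb of transcript over 6 kidneys (log axis) for the pathway genes with a known length, 1 row per role, with the 10 genes as labelled dark points, other pathway genes as grey points and the median of all genes with at least 1 CPM as a dashed line. *Ddit4* and *Rheb* are the rightmost dark points, and *Rptor*, *Rictor* and *Tsc1* lie left of the line with *Tsc2* on it.

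The transcripts listed for 1 gene were mostly near one another. Of the 10 genes, 8 had more than 1 transcript, and in 5 of these the lowest had at least 90% of the CPM of the highest. The exceptions were *Mtor*, *Rictor* and *Tsc1*, each with 1 assembled transcript at 75.3%, 53.3% and 76.9% of the highest. Over all 8470 genes with at least 1 CPM and more than 1 transcript, the share with that agreement was 49.2%. In 1288 of them (15.2%), as in *Tsc1*, at least 1 pair of transcripts had an identical value. How reads were shared among the transcripts of 1 gene is not given in the sources used here, and their values were not read as levels of separate isoforms.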

How the data were processed

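Total RNA of whole kidneys was made into strand-specific libraries and read as 51 bp single-end reads. Per the labels and the methods of the study, low-quality read ends were removed by the authors, mapping was to mm10 with TopHat2 2.0.12 and the iGenomes annotation, and poorly mapped alignments were dropped. The submitters' processing notes also name bcl2fastq 1.8.4, Cufflinks, featureCounts of Subread 1.4.6 and edgeR 3.2.4. The deposited log2 values are the authors' average CPM of each transcript over all 6 kidneys, on a log2 scale. Whether the average was taken before or after the log is not stated in the sources used here. Other columns of that table hold the authors' own comparison of DKO with SKO (log2 fold change, likelihood ratio statistic, p-value and adjusted p-value). They were not used, and the planned quasi-likelihood test was not run, since it needs counts per sample.

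CPM was taken as 2 to the power of the log2 value. The lowest CPM, 0.0263, is shared by 4617 transcripts and reflects a prior count that the sources used here do not state. How reads of exons shared by several transcripts were assigned is not given in the sources used here. A gene was represented by its highest transcript, with a RefSeq mRNA taken in a tie. Levels per kb used the highest RefSeq mRNA and the length of its longest paired transcript in GENCODE M21 (GRCm38, the assembly of mm10), found for 20099 of 20470 gene symbols with a RefSeq mRNA. The authors counted reads on another annotation, and the lengths of its transcripts were not used here. Where the 2 lengths differ, the level per kb and the ratios made from it would differ too. Castor1 and Castor2 were found under older symbols. 3′-UTRs were read from the GENCODE transcript sequences, from after the stop codon. The functions were tested on simulated data. Python 3.11.15, numpy 2.4.6, pandas 2.3.3 and matplotlib 3.10.9 were used.

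The 10 genes, the 8 pathway lists and the markers were chosen with earlier results of these data known. The genes named are the 10 genes, all subunits of the mTOR, TSC and AMPK lists, and the highest and lowest gene per kb of each other list, and pathway genes named with values beyond these (*Stk11*, *Rraga*, *Sgk1*, *Ddit4l*, *Sesn1* and *Sesn2*) were chosen after their values were seen. *Pkd1* and *Mir17hg* are named as the targeted genes, *Rptoros* for its overlap, and *Adgre1*, *Slc34a1*, *Cdh16* and *Alb* from the markers. The alternatives tried are another transcript or summary per gene, removal of the lowest CPM, a filter on low values, other lengths and other seed matches.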

Additional observations from a re-analysis of the deposited data

How the results depend on the processing

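All 10 genes stayed above the median gene in CPM under the 5 alternatives tried (RefSeq mRNA only, median or sum of a gene's transcripts, removal of the lowest CPM, and a filter at 1 CPM). Except under the filter, that median took in genes below 1 CPM. Over all gene symbols it was 2.36 CPM, against 14.2 CPM for the lowest of the 10 genes, so this count could hardly change. None of the 5 alternatives divided by length, and per kb only 7 of the 10 genes were above the median of genes with at least 1 CPM. Removal of the lowest CPM could not alter the count in CPM, since it takes the same amount from every gene. It changed the CPM of single genes by at most 0.186%. For all of the 10 but *Rheb*, the RefSeq mRNA was already the value used. Of 40 alternative CPM values of single genes, 32 were within 1.5 times the value given. The other 8 were sums over the transcripts of a gene, which would count a read more than once if it was assigned to several transcripts, and which reached 2.77 times for *Tsc1*. Of 30 alternative ratios per kb, 27 were within 1.5 times and on the same side of 1. Many of these could hardly differ. The ratios already used the RefSeq mRNA, so that this alternative repeated them. The longest coding transcript changed only the ratio of *Tsc1* to *Tsc2*, and the lowest CPM taken away was only 0.0263. The count of 27 is therefore no measure of robustness. Without the length correction, *Prkag1* to *Prkag2* turned from 1.80 to 0.893, *Prkaa1* to *Prkaa2* moved from 0.714 to 0.417 and *Prkab1* to *Prkab2* from 5.48 to 2.29. The number of genes with a seed match depended on the match. With 8mers only it fell from 1 to 0 of the 10 genes for miR-17 and miR-20a (3.50% of all genes), from 2 to 0 for miR-18a (1.33%) and from 2 to 1 for both miR-19 (5.31%) and miR-92a (2.29%). With bases 2 to 7 it rose to 3, 4, 5 and 6 in the same order, against 36.9%, 31.4%, 23.9% and 24.6% of all genes. These changes follow from the construction of the motifs. The 3′-UTR of the RefSeq transcript gave the same counts. The alternatives with DESeq2, with other filters on counts and without single replicates were not run, and no paired analysis was possible because the table gives no value per sample. The same fact means that no interval or limit from depth can be set.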
